A study of Mus musculus with 62 samples.

Results

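The 9 genes described here encode proteins that hold the cells of an epithelium together: occludin (Ocln), the junctional adhesion molecule JAM-A (F11r), the claudins Cldn1, Cldn3, Cldn4, Cldn7 and Cldn18, the scaffold protein ZO-1 (Tjp1) and E-cadherin (Cdh1). They were chosen by name as tight junction and adhesion genes of the airway. Each was taken from the rows of the deposited table whose platform annotation gives that gene symbol and no other. All 9 had exactly 1 such row (transcript cluster), out of 14824 genes that could be read in this way and 16715 clusters in all. The clusters were 6815539 (Ocln), 6755179 (F11r), 6844819 (Cldn1), 6934890 (Cldn3), 6942401 (Cldn4), 6782087 (Cldn7), 6998231 (Cldn18), 6967914 (Tjp1) and 6978923 (Cdh1).

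Tight junctions are rows of membrane strands near the top of epithelial cells that limit what passes between the cells. Claudins form the strands and set which ions pass, occludin and JAM-A sit in or beside them, and ZO-1 ties the strand proteins to the actin skeleton. E-cadherin forms the adherens junction, which lies under the tight junction and joins neighbouring cells through catenins. In the lung these junctions keep inhaled material out of the tissue and fluid out of the air spaces. Der p 1, a cysteine protease of the house dust mite, has been reported to cleave junction proteins of cultured airway cells. The arrays measured RNA, so they bear on the levels of the transcripts and not on cleavage of the proteins.

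RNA of the right lower lung lobe was measured on 62 Affymetrix mouse exon arrays from 48 male mice of the inbred strains BALB/cJ and C57BL/6J, of an age the labels leave out. Every mouse, controls included, had been sensitised with 10 µg of Der p 1 in the peritoneum on days 1 and 8. On day 15 challenged mice received 50 µg of Der p 1 and control mice received PBS. Lungs were taken on day 18, 72 h after challenge, so no group shows an unsensitised lung. The groups held 11 BALB/cJ mice after PBS, 14 BALB/cJ mice after Der p 1, 11 C57BL/6J mice after PBS and 12 C57BL/6J mice after Der p 1. Levels are the authors' log2 values, with the arrays of a mouse averaged. Differences are log2 ± standard error (SE) from a limma fit over all clusters. A cluster was called where its p-value, after Benjamini-Hochberg adjustment across the 16715 clusters of that comparison, was under 0.05. In a whole lobe, fewer cells of a type and less RNA per cell cannot be told apart.

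Array medians ran from 6.39 to 6.62, and the mean of 10 alveolar type II markers lay between 10.4 and 11.3 in every mouse. The SD over clusters of a mouse's arrays, a measure of the spread of the array, ran from 1.44 to 2.09. It was 1.86 ± 0.15 (SD, n = 12) in challenged C57BL/6J mice and 1.96 ± 0.11 (n = 11) in their controls. Mouse numbers begin with 5 or with 6, and the labels do not say what distinguishes these 2 number series. Mouse633, a BALB/cJ control, had a summed level of 5 goblet cell markers of 7568, against 203 to 474 in the other 10 controls, and mouse634, a challenged BALB/cJ mouse, had 264 against 1470 to 7899 in the rest of its group. Among C57BL/6J controls mouse644 had 7909, while the others had 233 to 2807. For 7 mice with 3 arrays each, the SD between arrays of a mouse was 0.11 to 0.24 for the 9 genes, against 0.20 to 0.53 between mice of a group. The spread between mice of a group includes any difference between the number series. This spread and the number of mice limit the precision of what follows.

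The 250 bases before the start of 4 of the genes are shown because these 4 were lower after Der p 1 in C57BL/6J mice. They come from RefSeq on build GRCm38.p6 and are written 5′ to 3′ on the strand of the gene. Capitals mark 2 short motifs searched on both strands, which are the E-box CACCTG, bound by repressors of the Snail and Zeb families, and the GC box GGGCGG, bound by Sp factors. A further motif, AACCNGTT, bound by grainyhead-like factors, was not found in any window shown. RefSeq gives Ocln and Cldn18 more than 1 start. Both Ocln windows are printed, which overlap in part, and the first start of Cldn18.
Ocln, first start (chr13:100552719-100552968, minus strand): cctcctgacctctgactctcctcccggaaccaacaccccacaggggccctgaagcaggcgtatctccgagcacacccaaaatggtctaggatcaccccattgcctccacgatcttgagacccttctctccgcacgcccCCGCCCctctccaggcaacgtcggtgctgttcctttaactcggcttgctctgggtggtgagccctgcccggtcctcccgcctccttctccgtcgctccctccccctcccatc
Ocln, second start (chr13:100552499-100552748, minus strand): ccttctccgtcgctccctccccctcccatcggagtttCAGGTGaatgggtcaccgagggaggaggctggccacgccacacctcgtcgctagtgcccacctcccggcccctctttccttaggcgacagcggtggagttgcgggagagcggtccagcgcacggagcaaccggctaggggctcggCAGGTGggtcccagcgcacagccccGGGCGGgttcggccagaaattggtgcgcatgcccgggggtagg
Cldn4 (chr5:134946935-134947184, minus strand): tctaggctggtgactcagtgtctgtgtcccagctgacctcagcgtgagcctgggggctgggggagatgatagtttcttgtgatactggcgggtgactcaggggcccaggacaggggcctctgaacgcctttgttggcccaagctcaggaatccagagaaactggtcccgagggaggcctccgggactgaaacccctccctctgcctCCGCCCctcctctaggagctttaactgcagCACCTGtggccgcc
F11r (chr1:171437311-171437560, plus strand): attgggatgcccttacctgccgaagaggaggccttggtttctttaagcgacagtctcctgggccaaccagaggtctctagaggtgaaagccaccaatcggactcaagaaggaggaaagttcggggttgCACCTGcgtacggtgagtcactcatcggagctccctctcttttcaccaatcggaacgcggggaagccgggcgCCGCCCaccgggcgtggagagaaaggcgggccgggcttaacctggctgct
Cldn18, first start (chr9:99717268-99717517, minus strand): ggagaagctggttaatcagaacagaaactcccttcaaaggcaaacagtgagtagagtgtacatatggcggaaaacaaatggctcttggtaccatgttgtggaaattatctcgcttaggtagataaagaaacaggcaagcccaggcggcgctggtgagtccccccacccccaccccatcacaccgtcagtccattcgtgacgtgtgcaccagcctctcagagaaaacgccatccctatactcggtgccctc

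Windows were found for 8 of the 9 genes, Cdh1 being the one without an entry. Counting the first start of each gene, the E-box was present in 2 of 8, Cldn4 and F11r, and in 17.2% of all 32851 windows in the table. All windows include the further starts of a gene. The first base of the match lay 14 bases before the start of Cldn4 and 122 bases before that of F11r. The second Ocln window held 2 matches, and so did the second Cldn7 window, which is not printed. The GC box was present in 6 of 8 first windows, all but Cldn7 and Cldn18, and in 32.7% of all windows. The second Cldn7 window held 1. The bases G and C made up 55.6% to 64.0% of the 6 windows with a match. They made up 51.2% (Cldn7) and 52.0% (Cldn18) of those without, and a median of 52.4% over all windows. The part of base composition in these counts was not tested. The grainyhead-like motif was present in 0 of 8 and in 1.79% of all windows. Matches of different motifs did not overlap in the windows shown. The 4 genes that were lower differ in these letters, and a match describes the sequence alone.

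In C57BL/6J mice Der p 1 was followed by lower levels of Ocln, F11r, Cldn4 and Cldn18, and the other 5 genes did not pass the test. That is 4 of 9 lower and 0 of 9 higher, where 8.97% of all clusters were lower and 9.85% higher (18.8% in either direction). With arrays centred on their median, 12.9% of all clusters were lower and again 4 of 9 of these genes. The median difference of the 9 genes was -0.27, against 0.07 over all clusters. All 9 genes lay in the brighter part of the clusters, at percentiles 53.0 (Cldn1) to 99.6 (Cldn18) of mean level. With the dimmest 50% of clusters left out, 17.3% of the remaining clusters were lower, and again 4 of 9 of these genes. The median difference of those clusters was -0.07. The 4 genes fell by 1.22-fold to 1.61-fold, and for every gene the control and challenged mice overlapped, whereas 0.0479% of all clusters had groups without overlap.

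Ocln, a membrane protein of the tight junction strand, had a lowest, median and highest level of 7.04, 7.82 and 8.21 in the 11 controls. In the 12 challenged mice these were 6.80, 7.26 and 7.74. All 12 challenged mice lay below the control mean, and the groups overlapped because a few controls were as low as challenged mice. The fall was 0.415 on the log2 scale (difference -0.42 ± 0.12, 1.33-fold, limma adjusted p = 0.0143). F11r, whose product binds its like on the neighbouring cell, ran from 9.62 through 9.94 to 10.35 in controls and from 9.26 through 9.67 to 9.97 after Der p 1. Here 11 of 12 challenged mice lay below the control mean, and the difference was -0.28 ± 0.09 (1.22-fold, limma adjusted p = 0.0207).

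Cldn4, a claudin that tightens the barrier and is made in alveolar and airway epithelium, showed the largest difference of the 9 genes and the widest spread. Its lowest, median and highest level was 6.86, 7.96 and 9.12 in C57BL/6J controls and 6.60, 7.13 and 8.17 after Der p 1. Of the challenged mice 10 of 12 lay below the control mean, and the difference was -0.69 ± 0.21 (1.61-fold, limma adjusted p = 0.0190). Cldn18, the claudin typical of the alveolar epithelium, ran from 10.94 through 11.30 to 11.69 in controls and from 9.99 through 11.05 to 11.61 after Der p 1. Its SD was 0.24 in controls and 0.54 in challenged mice, of which 8 of 12 lay below the control mean. The difference was -0.41 ± 0.15 (1.33-fold, limma adjusted p = 0.0440), and it was the call nearest the threshold.

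Of the other claudins among the 9 genes, Cldn3, which also seals the strand, had a mean of 8.91 ± 0.34 (SD, n = 11) in controls and 8.64 ± 0.41 (n = 12) after Der p 1 (difference -0.27 ± 0.15, limma adjusted p = 0.190). Cldn1, needed for the barrier of the skin, stood at 6.99 ± 0.43 and 7.24 ± 0.54, and Cldn7, which is also found along the sides of epithelial cells, at 8.01 ± 0.34 and 8.16 ± 0.41. Neither was called (limma adjusted p = 0.344 and 0.475). The scaffold gene Tjp1 had 9.90 ± 0.20 and 9.67 ± 0.25, with a difference of -0.23 ± 0.10 that missed the threshold after adjustment (limma adjusted p = 0.113). Cdh1 was at 9.63 ± 0.41 and 9.67 ± 0.33, and the 95% interval of its difference ran from -0.26 to 0.33.

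**Figure D1:**
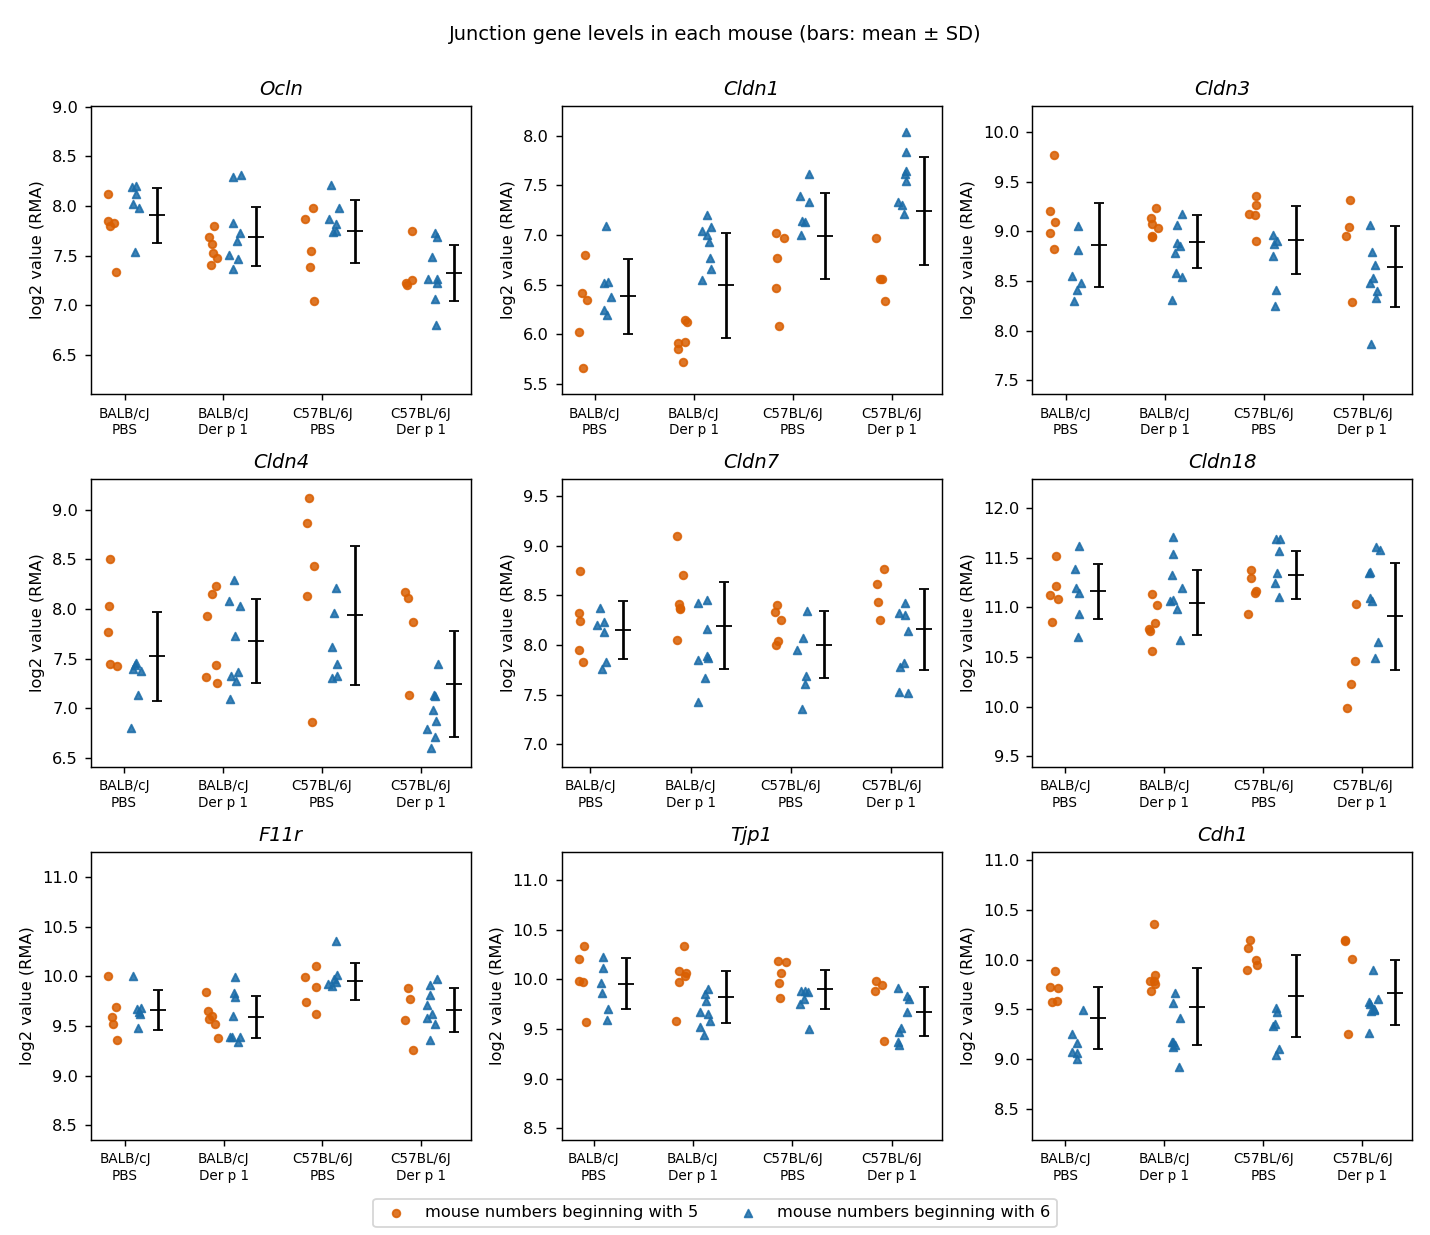
Deposited log2 level of each junction gene (vertical axis) in the 4 groups of mice, with 1 point per mouse, shaped and coloured by the first digit of the mouse number, and bars for the mean ± SD of the group. Ocln in challenged C57BL/6J mice lies at 6.80 to 7.74, lower than in the other groups but overlapping them, and Cldn1 is higher in number series 6.

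The spread of the arrays moved with several of these genes. Over 48 mice, with group means removed, the level correlated with the array SD at r = 0.62 for Ocln, 0.66 for Cldn18, 0.69 for Cldn1 and 0.53 for F11r. It did so at 0.07 for Cldn4, 0.05 for Tjp1, 0.02 for Cldn3, -0.29 for Cdh1 and -0.45 for Cldn7. With the array SD as a covariate the C57BL/6J difference of Ocln was -0.25 (limma adjusted p = 0.0906), that of Cldn18 -0.20 (0.286) and that of F11r -0.19 (0.104), and these 3 calls were lost. Cldn4 kept its call at -0.65 (0.046), and Cldn1, at 0.55, gained one (0.0113), where 13.5% of all clusters were called. With array SD and number series together, an alternative chosen after seeing the data, 0 of 9 genes and 8.51% of all clusters were called. Cldn4 was then at -0.36 (0.223). When the arrays were quantile normalised again, 17.6% of all clusters were called. Ocln and Cldn4 were among them, and F11r, at -0.13 (0.217), and Cldn18, at -0.30 (0.0533), were not.

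**Figure D2:**
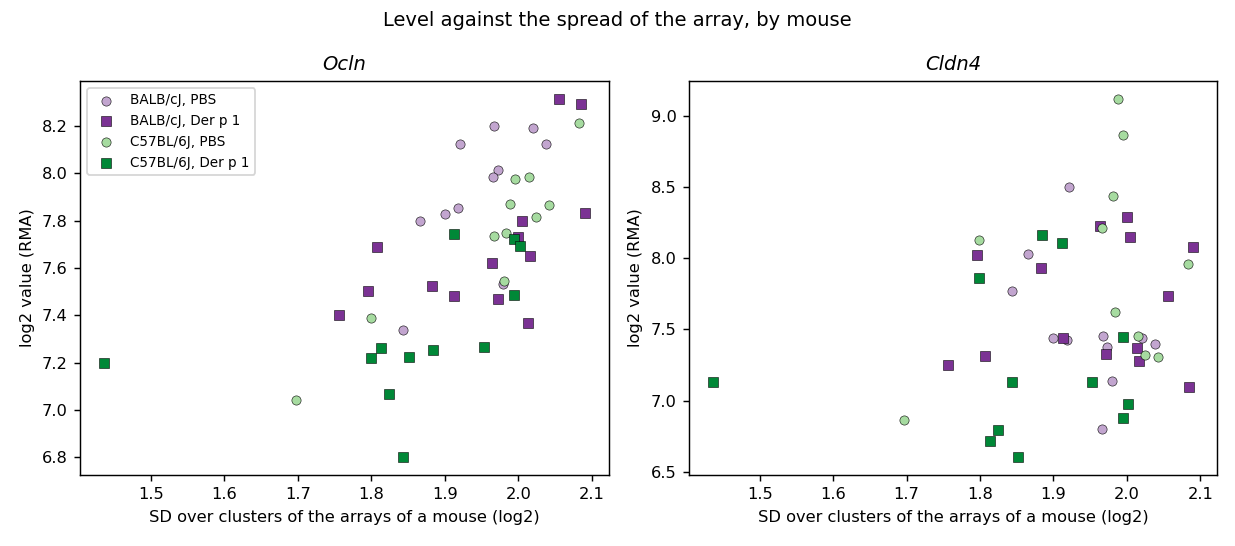
Level of Ocln and Cldn4 (vertical axes, log2) against the SD over clusters of a mouse's arrays (horizontal axis, log2), 1 point per mouse in 4 groups. Ocln was higher where the array was wider (r = 0.62 with group means removed), and Cldn4 showed r = 0.07.

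Within the number series the C57BL/6J differences of these 4 genes kept their direction and were called in part. In series 6, with 6 controls and 8 challenged mice, Ocln differed by -0.58, Cldn4 by -0.69 and F11r by -0.33, and all 3 were called, where 24.3% of all clusters were called and 13.0% were lower. Ocln ran from 7.74 to 8.21 in those controls and from 6.80 to 7.72 in the challenged mice without overlap, as did 1.01% of all clusters in this direction. In series 5, with 5 controls and 4 challenged mice, Cldn18 alone was called, at -0.76 (limma adjusted p = 0.0312), where 1.82% of all clusters were called, while Ocln stood at -0.21 (0.538), Cldn4 at -0.46 (0.494) and F11r at -0.25 (0.399). Cldn18 in series 6 was at -0.29 (0.203). With the number series as a covariate over all mice, all 4 calls were kept, and 32.8% of all clusters were called (15.6% lower).

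Single mice decided some calls. Cldn18 lost its call when any 1 of 13 mice was left out (mouse529, mouse532, mouse534, mouse537, mouse540, mouse644, mouse645, mouse648, mouse655, mouse656, mouse657, mouse659 or mouse661), at most to an adjusted p of 0.105 without mouse532. Cldn4 lost it without mouse536 (0.05) and F11r without mouse656 (0.0555), both controls, whereas Ocln kept it without any 1 mouse. Without mouse633, mouse634, mouse646 and mouse649, which an earlier analysis of these data had set apart, 3 of 9 genes were lower and Cldn4 was at -0.61 (0.0584). Of all clusters 14.1% were called in that setting and 6.83% were lower.

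Marker genes of cell types were counted in the same comparison, where 8.97% of all clusters were lower and 9.85% higher. With the dimmest 50% of clusters left out, 17.3% were lower. The counts of alveolar type II, ciliated cell and leukocyte markers lie near these shares and are no result about these lists. Of 10 measured pan-epithelial markers 4 were lower in challenged C57BL/6J mice, among them Krt19 at -0.85, Prom1 at -0.47 and Foxa2 at -0.41, and their summed level ran from 4123 to 7050, against 5374 to 7487 in controls. Of 9 alveolar type I markers 5 were lower, such as Clic5 at -0.48 and Hopx at -0.47, with sums of 10471 to 18154 against 13940 to 17614. Alveolar type II markers were lower in 2 of 10 (sums 23083 to 39634 against 29567 to 38145), club cell markers in 5 of 8 with 1 higher (13286 to 22557 against 17146 to 22134) and ciliated cell markers in 1 of 10 (788 to 2537 against 868 to 2041).

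Goblet cell markers were higher in 4 of 5 (1466 to 7900 against 233 to 7909) and a basal cell marker in 1 of 5 (156 to 315 against 150 to 232). Endothelial markers were lower in 6 of 10 (7006 to 12962 against 11550 to 13853), 1 of 10 leukocyte markers was higher (2612 to 12390 against 3588 to 9040), fibroblast markers were higher in 3 and lower in 2 of 7 (3402 to 8599 against 3481 to 5752), and 0 of 5 mesothelial markers were called by limma (339 to 863 against 282 to 964). No marker had a value of 0. Without the same 4 mice, 2 of 10 pan-epithelial, 5 of 9 alveolar type I and 5 of 10 endothelial markers were lower, as were 6.83% of all clusters. The part of these cell types in the lower junction levels was not tested.

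In BALB/cJ mice 0 of 9 junction genes were called after Der p 1 by limma, and 0 of 9 had an unadjusted p under 0.05, where 1.93% of all clusters were called. The median difference was 0.04, against -0.03 over all clusters, and it was -0.04 without mouse633, mouse634, mouse646 and mouse649, again with 0 of 9 called. Ocln had the largest difference in size, from 7.34, 7.98 and 8.20 (lowest, median, highest) in 11 controls to 7.37, 7.63 and 8.31 in 14 challenged mice. That was -0.22 ± 0.12, with 12 of 14 challenged mice below the control mean and a 95% interval of -0.45 to 0.02 (limma adjusted p = 0.493). Cldn4 ran from 6.80 through 7.44 to 8.50 in controls and from 7.09 through 7.59 to 8.29 after Der p 1, with the challenged mice split evenly, 7 above and 7 below the control mean (difference 0.15 ± 0.21, interval -0.26 to 0.57). Means of F11r were 9.66 ± 0.20 and 9.59 ± 0.21, and those of Cldn18 were 11.16 ± 0.27 and 11.05 ± 0.32. Tjp1 differed by -0.14, Cldn3 by 0.04, Cldn7 by 0.05, Cldn1 by 0.11 and Cdh1 by 0.12. Without mouse633 and mouse634, whose goblet cell markers stood apart from their groups, the difference of Ocln was -0.30 (limma adjusted p = 0.146) and that of Cldn18 went from -0.11 to -0.21 (0.556). Cldn3 was then at -0.04 (0.948), on the other side of 0, and none of the 9 genes was called (0 of 9).

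Whether the response differed between the strains was tested directly, as the BALB/cJ difference minus the C57BL/6J difference. None of the 9 genes was called by limma (0 of 9, with 1 at an unadjusted p under 0.05), and 0.0120% of all clusters were. The gene at an unadjusted p under 0.05 was Cldn4, whose difference between the responses was 0.84 ± 0.30 with a 95% interval of 0.25 to 1.44 (p = 0.00627, adjusted p = 0.407). For Ocln it was 0.20 ± 0.17 (-0.14 to 0.54), for F11r 0.22 ± 0.12 (-0.03 to 0.47) and for Cldn18 0.30 ± 0.21 (-0.11 to 0.72). A strain difference in the response was therefore not shown for any of the 4 genes called in C57BL/6J mice. With array quality weights Cldn4 was called, at 1.04 (adjusted p = 0.0273), where 10.5% of all clusters were called.

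**Figure D3:**
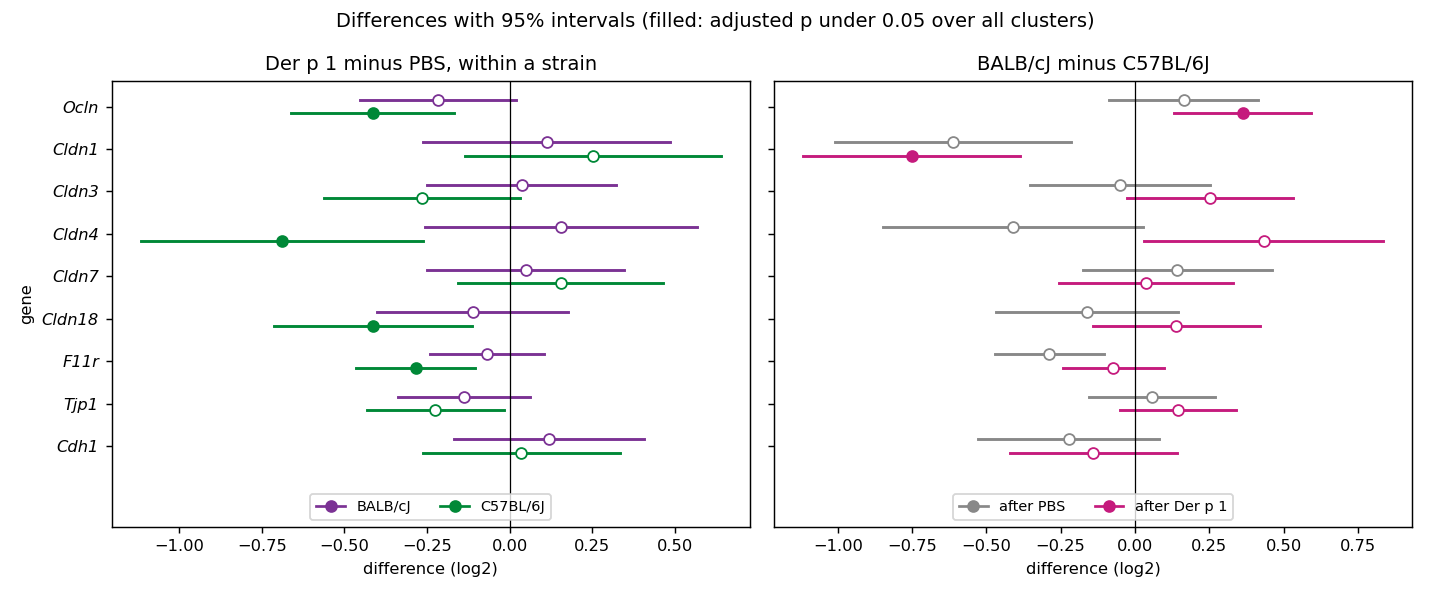
Differences of the 9 junction genes (horizontal axes, log2) with 95% intervals, on the left Der p 1 minus PBS within each strain and on the right BALB/cJ minus C57BL/6J after each challenge. Filled points passed an adjusted p under 0.05 over all clusters, which 4 did in C57BL/6J mice, 0 in BALB/cJ mice and 2 between challenged strains.

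Between the strains after PBS 0 of 9 genes were called by limma and 2 had an unadjusted p under 0.05, where 4.66% of all clusters were called. These 2 lay close to the threshold. Cldn1 ran from 5.66 through 6.38 to 7.09 in BALB/cJ controls and from 6.08 through 7.02 to 7.61 in C57BL/6J controls, with 10 of 11 BALB/cJ mice below the C57BL/6J mean (difference -0.61 ± 0.20, limma adjusted p = 0.0620). F11r ran from 9.36 through 9.64 to 10.01 and from 9.62 through 9.94 to 10.35 (difference -0.29 ± 0.09, limma adjusted p = 0.0552). With the number series as a covariate both were called, Cldn1 at -0.61 (0.0012) and F11r at -0.29 (0.0373), where 6.74% of all clusters were called. Cdh1 in series 5 ran from 9.57 to 9.88 in BALB/cJ and from 9.89 to 10.19 in C57BL/6J controls without overlap, as did 2.21% of all clusters in that direction, but in series 6 the strains overlapped.

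After Der p 1 Cldn1 was lower and Ocln higher in BALB/cJ than in C57BL/6J mice. That is 2 of 9 genes, where 13.3% of all clusters were called (6.42% higher and 6.87% lower in BALB/cJ). With arrays centred on their median 4.94% of all clusters were lower, and 1452 of 16715 were higher, against 1073 as reported. With the dimmest 50% of clusters left out, 17.9% of the rest were called. A count of 2 of 9 lies near these shares and is no result about the 9 genes as a set. Cldn1 had a lowest, median and highest level of 5.72, 6.60 and 7.20 in 14 BALB/cJ mice and of 6.33, 7.32 and 8.04 in 12 C57BL/6J mice. All 14 BALB/cJ mice lay below the C57BL/6J mean (difference -0.75 ± 0.18, 1.68-fold, limma adjusted p = 0.00339), and the call held without any 1 mouse. Over all mice the strains overlapped. Within number series 5 they did not, at 5.72 to 6.15 in BALB/cJ and 6.33 to 6.97 in C57BL/6J mice, nor within series 6, at 6.55 to 7.20 and 7.21 to 8.04. The same held in both series and in this direction for 0.407% of all clusters.

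Ocln lay at 7.37, 7.63 and 8.31 in challenged BALB/cJ and at 6.80, 7.26 and 7.74 in challenged C57BL/6J mice, all 14 of the former above the mean of the latter (difference 0.36 ± 0.12, 1.29-fold, limma adjusted p = 0.0286). This comparison and the C57BL/6J challenge comparison share the 12 challenged C57BL/6J mice, so they are not separate evidence. The call was lost without mouse634 (0.0612), mouse636 (0.0623), mouse648 (0.0555) or mouse659 (0.0684), and with the array SD as a covariate (0.21, adjusted p = 0.170). Cldn4, with 13 of 14 BALB/cJ mice above the C57BL/6J mean, differed by 0.43 ± 0.20 and was not called (limma adjusted p = 0.132), but in series 6 alone it was, at 0.69 (0.0042). F11r differed by -0.07 and was not called, but with the arrays quantile normalised again it was, at -0.21 (0.0353). Probes that lie over bases in which the strains differ were not masked, and their part in the strain differences was not tested.

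The number series set the level of most of these genes apart within the groups. Cldn1 was higher in series 6 by 0.71 ± 0.09, at 6.33 ± 0.43 (SD, n = 20) in series 5 and 7.08 ± 0.48 (n = 28) in series 6, and Cldn18 by 0.33 ± 0.09. Cdh1 was lower by 0.56 on the log2 scale (-0.56 ± 0.07), Cldn4 differed by -0.50 ± 0.13, Cldn3 by -0.42 ± 0.08, Cldn7 by -0.40 ± 0.09 and Tjp1 by -0.23 ± 0.06. These 7 of 9 were called by limma, where 62.5% of all clusters were (28.6% higher and 34.0% lower in series 6), while Ocln (0.18 ± 0.08, adjusted p = 0.0583) and F11r (0.06 ± 0.06, adjusted p = 0.394) were not. The called junction genes differed in both directions between the series, as did all clusters, and claudins stood on both sides. Cldn1 and Cldn18 were higher in series 6, and Cldn3, Cldn4, Cldn7, Tjp1 and Cdh1 were lower. A count of 7 of 9 lies near the 62.5% of all clusters and is no result about these genes.

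From mouse to mouse within groups the 9 genes did not move as one. Of 36 pairs, 22 had a correlation above 0 over 48 mice with group means removed, and the median r was 0.21. The highest were Ocln with F11r (0.74), both lower in challenged C57BL/6J mice, and Cldn1 with Cldn18 (0.72). Tjp1 and Cdh1 (0.62) and Cldn3 and Cdh1 (0.62) followed, and the neighbouring genes Cldn3 and Cldn4 of chromosome 5 had 0.56. Cldn7 and Cldn18 had the lowest value (-0.61). With number-series means removed as well, Cldn1 and Cdh1 went from -0.56 to 0.04 and Cldn3 and Cldn18 from 0.30 to 0.85, while Ocln and F11r stayed at 0.75. These points share arrays, the array SD and the number series, so the values describe these arrays.

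**Figure D4:**
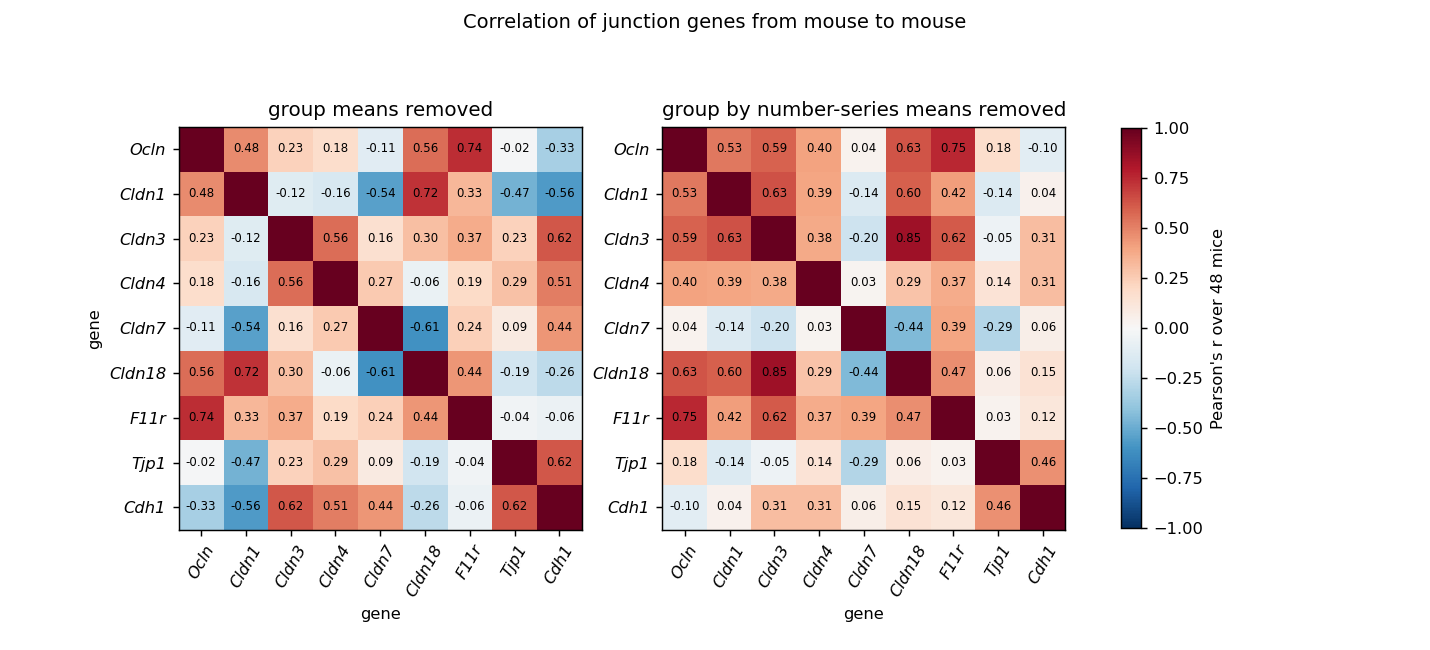
Pearson's r between the levels of each pair of junction genes over 48 mice (colour scale from -1 to 1, value in each cell), on the left with the 4 group means removed and on the right with the means of group by number series removed. Ocln and F11r show 0.74 and 0.75, whereas Cldn1 and Cdh1 change from -0.56 to 0.04.

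The genes most like each member over the same 48 mice, by Pearson's r with group means removed among all single-symbol genes, were as follows. Ocln was closest to Epb41l4a (0.87), Gucy1b1 (0.86) and Stmn2 (0.86), F11r to Gadd45b (0.79), Eci1 (0.77) and Qsox2 (0.77), and Tjp1 to Arhgef12 (0.88), Pcnx (0.87) and Map3k5 (0.87). Cdh1 had Ptprf (0.93), Agrn (0.89) and Plxnb2 (0.89), and Cldn18 had Pla2g1b (0.93), Smim14 (0.93) and Pmp22 (0.92). Cldn1 went with Glrx2 (0.88), Hfe (0.87) and Alg2 (0.87), Cldn3 with Scnn1b (0.87), Stard10 (0.85) and Syt5 (0.85), and Cldn7 with Acadvl (0.85), Cct7 (0.82) and Dok1 (0.81). Cldn4 had no gene as close, its nearest being Kif9 (0.68), Slc39a4 (0.68) and Rab3d (0.66). With number-series means removed too, Ptprf and Arhgef12 were still the nearest genes of Cdh1 and Tjp1, while the nearest gene of Cldn1, Glrx2, went from 0.88 to 0.68 and to rank 30. The 3 genes named for Cldn3 then had ranks 55, 122 and 85, and those named for Cldn4 had ranks 52, 90 and 120.

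Other genes of the junctions were counted in the same fit, where 8.97% of all clusters were lower and 9.85% higher. With the dimmest 50% of clusters left out, 17.3% of the rest were lower. The counts of other membrane proteins and of plaque and polarity, desmosome and regulator genes lie near those shares. They are no result about these lists. Of 14 measured claudins beyond the 5 above (19 were listed), 0 were called after Der p 1 in C57BL/6J mice by limma, with 3 at an unadjusted p under 0.05, and their median difference was 0.07, the same as that of all clusters. Other membrane proteins of the tight junction had all 10 differences below 0 (-0.45 to -0.01, 13 listed), where 59.1% of all clusters lay above 0. Of the 10, 2 were called lower. These were Jam2 (-0.45 ± 0.11, limma adjusted p = 0.0041), a relative of F11r, and Esam (-0.43 ± 0.09, adjusted p = 0.0011), both known from endothelial junctions. Esam also stands on the endothelial marker list. Of 15 plaque and polarity genes 2 were lower and 1 higher. The lower ones were Pals1 (-0.64), a polarity scaffold listed as Mpp5 in the annotation, and Prkci (-0.57), the atypical protein kinase C of the polarity complex, and the higher one was Tjp3 (0.27), a relative of Tjp1.

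Of 13 adherens junction genes 4 were lower and 1 higher in challenged C57BL/6J mice, where 8.97% of all clusters were lower and 9.85% higher. The lower ones were plakoglobin (Jup, -0.47), Nectin3 (-0.35), beta-catenin (Ctnnb1, -0.30) and p120 catenin (Ctnnd1, -0.26), and P-cadherin (Cdh3, 0.30) was higher. Cdh1 itself differed by 0.04. Of 10 desmosome genes Pkp2 alone was lower (-0.45). Of 15 regulators of epithelial genes Grhl1 (-0.35), a grainyhead-like activator, and Zeb1 (-0.35), a repressor of epithelial genes, were lower, and 13 were not called. Without mouse633, mouse634, mouse646 and mouse649 the counts lower were 2 of 10 membrane proteins, 2 of 15 plaque and polarity genes, 3 of 13 adherens junction genes, 0 of 10 desmosome genes and 2 of 15 regulators. Of all clusters 6.83% were lower in that setting.

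**Figure D5:**
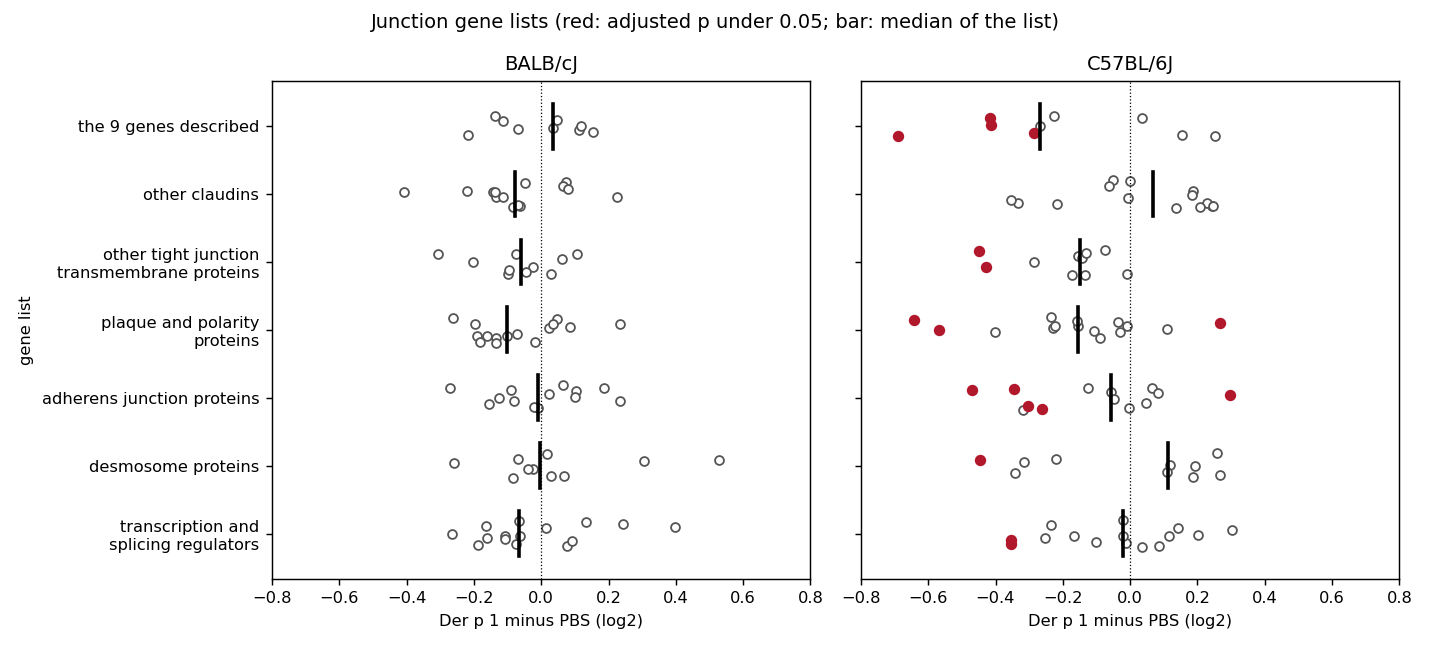
Differences after Der p 1 (horizontal axes, log2) of the genes of each junction list in BALB/cJ and C57BL/6J mice, 1 point per gene, filled red where the adjusted p was under 0.05, with a bar at the median of the list. In BALB/cJ mice 0 points are red, and in C57BL/6J mice the list of the 9 genes has its median at -0.27.

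In BALB/cJ mice 0 genes of any of these 6 lists were called after Der p 1 by limma, with 1 to 3 of a list at an unadjusted p under 0.05. Without the same 4 mice, 1 of 14 claudins, 1 of 13 adherens junction genes and 1 of 15 regulators were lower. In that setting 1 of 10 desmosome genes was higher, and 1 of 15 plaque and polarity genes changed in each direction. Of all clusters 4.68% were then called (1.41% lower), so these counts are no result about the lists. Between the strains after PBS, where 4.66% of all clusters were called, the called genes were Cldn10 (-0.38), Marveld2 (0.50) and Elf5 (0.70). Marveld2 encodes tricellulin of the corners where cells meet, and Elf5 is an epithelial transcription factor. After Der p 1, where 13.3% of all clusters were called (6.42% higher and 6.87% lower), these 3 genes were called with the same signs. Cldn10 was at -0.25, Marveld2 at 0.48 and Elf5 at 0.85. Higher in challenged BALB/cJ mice were also Cldn5 (0.42), the endothelial claudin, Jam2 (0.43), Esam (0.42), Prkci (0.36), Ctnnb1 (0.31) and the splicing regulator Esrp1 (0.41), while Cldn11 (-0.41) was lower. Jam2, Esam, Prkci and Ctnnb1 were among those lower after Der p 1 in C57BL/6J mice, and both comparisons use the same 12 challenged C57BL/6J mice. Lists were not tested as wholes, so the genes named between strains are no result about junction genes as a set. Without the same 4 mice, 8.07% of all clusters were called between challenged strains, against 13.3% with all mice. In that setting 1 of 14 claudins, 2 of 10 membrane proteins, 1 of 15 plaque and polarity genes and 2 of 15 regulators were higher in challenged BALB/cJ mice. No claudin was then lower (0 of 14, against 2 of 14 with all mice), and 0 of 13 adherens junction genes and 0 of 10 desmosome genes were called.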

How the data were processed

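The deposited table holds log2 values, 1 for each transcript cluster and array, that the authors computed with RMA from core exons using Partek, per the labels, with no version stated in the sources used here. Scanner intensities were not analysed here, so background correction and probe filters are the authors' own. The 62 arrays were grouped by strain and challenge from the labels, and repeat arrays were averaged within each mouse, 7 mice having 3 arrays. Mice are separate animals, and p-values measure the spread between them. An array has no read depth, and repeat arrays gave the technical spread.

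Clusters were named with the platform annotation, in which 14959 clusters had 1 gene symbol, 1016 several and 740 none; of a gene with several clusters the brightest was used. A model with 1 mean per group was fitted with limma 3.58.1 (lmFit, eBayes, statmod 1.5.0) in R 4.3.3 over 16715 clusters, and checked on simulated data. It gave 5 comparisons, adjusted by Benjamini-Hochberg at 0.05. The number series was compared in the same model with a series term. Intervals cover 95%. Summed marker levels add 2 to the power of the log2 values.

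The genes, the lists and the alternatives were chosen with earlier results of these data known. The 9 genes are always named, with at most 6 called genes per list and comparison, at most 3 per marker list, and the 3 genes most like each of the 9. Promoter windows were searched as exact letters. Array coordinates were not used here, since the annotation names no build.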

Additional observations from a re-analysis of the deposited data

How the results depend on the processing

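Over 17 settings beside the reported one, 712 of 756 results for single junction genes stayed called or stayed uncalled. Of the rest, 22 lost a call and 22 gained one, and 0 changed direction while called. Among the 712 are 36 values that passed in neither setting and changed sign. Most of the 756 were uncalled as reported, so the 712 say little about the calls. In C57BL/6J mice Cldn18 lost its call in 5 of 17 settings, Cldn4 and F11r in 4 each and Ocln in 3. Between challenged strains Ocln lost its call in 5 settings and Cldn1 in 1. In C57BL/6J mice after Der p 1, 4 of 9 genes were called as reported. These 4 were lower. The count was 3 in series 6 alone and without mouse633, mouse634, mouse646 and mouse649, 2 with quantile normalization again and with the compared groups alone, 1 in series 5 alone and 0 with number series and array SD together. With the array SD as a covariate it was 2 (13.5% of all clusters called), of which 1 (Cldn4) was lower and 1 (Cldn1) higher. Leaving out each mouse gave 2 to 4. With the compared groups alone Cldn4 had an adjusted p of 0.0525 and Cldn18 of 0.0947. Between challenged strains 2 of 9 were called. The count was 3 with quantile normalization again (F11r gained, 12.6% of all clusters called) and in series 6 alone (Cldn4 gained, 21.3%). It was 0 in series 5 alone (1.31%). A count of 1 came with the array SD as a covariate (10.6%) and with both covariates (10.0%). The count was also 1 without mouse633 and mouse634 (10.7%), and without these and mouse646 and mouse649 (8.07%). Leaving out each mouse gave 1 to 2.

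Between control strains 0 of 9 were called. The count was 1 with quantile normalization again, arrays centred on their median, the dimmest 25% or 50% of clusters left out, the compared groups alone, series 6 alone, and the number series as a covariate without mouse633 and mouse634. In these settings 4.15% (series 6 alone) to 6.72% (number series without the 2 mice) of all clusters were called, against 4.66% as reported. The count was 2 with mouse as a random block (5.12% of all clusters called) and with the number series (6.74%), the array SD (7.44%) or both (9.33%) as covariates. It was 3 with array quality weights (10.6%). Leaving out each mouse gave 0 to 2: F11r was called without mouse524, mouse530, mouse531, mouse532, mouse619 or mouse636, and Cldn1 without mouse524, mouse530, mouse531, mouse532 or mouse632. In BALB/cJ mice the count stayed at 0 under every setting and every mouse left out, and so did that of the strain difference in response, except 1 with array quality weights. The cause of these changes was not tested.

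Counts over all clusters moved more. In C57BL/6J mice 3146 were called, 305 in series 5 alone, 1423 with both covariates, 5480 with the number series as a covariate (5394 also without mouse633 and mouse634) and 7035 with array quality weights. With arrays centred on their median the split was 1068 higher and 2148 lower of 3216, against 1646 and 1500. In BALB/cJ mice 323 were called, and 0 (series 6 alone) to 1361 (array quality weights) otherwise. Between strains the counts ran from 275 (series 5 alone) to 1765 (array quality weights) around 779 after PBS, and from 219 to 4527, the same settings, around 2222 after Der p 1. For the difference in response 2 were called, and 0 to 7 under all settings but array quality weights (1759). No paired analysis was possible because the numbered replicates in the labels are repeat arrays of a single animal, and no label ties animals of different groups together. The mean of all rows of a gene has no separate value, since each of the 9 genes has 1 row. Dim probes cannot be told from background in these values.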
